A study of Mus musculus with 5 samples.

Results

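Vcam1, Icam1, Sele, Selp, Itga4, Itgb1, Itgal, Itgam and Itgb2 encode the ligands and integrins by which leukocytes hold on to vessel walls and enter tissue. These 9 genes were taken by symbol from the 55450 genes of each count matrix, and all 9 had counts in cells of mouse cortex. There were 5 droplet libraries, 1 from sham-operated C57BL/6J mice and 1 each from C57BL/6J mice at 1, 3, 7 and 14 days after traumatic brain injury. By their titles the 4 injured libraries came from the site of injury, while sham carries no such note, and the sources used here do not give the count of mice per library. The tissue was digested with papain and DNase I and cleared of debris on Percoll, so only cells that came through this treatment were counted. With 1 library in each group no test was possible. Every interval is the 95% range from counting error alone, and every ratio compares libraries rather than conditions.

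Leukocytes leave the blood in steps. Selectins on activated endothelium slow them, chemokine signals then switch their integrins to a binding state, and the integrins grip immunoglobulin-like ligands on the vessel wall. VCAM-1, the product of Vcam1, is bound by VLA-4, a dimer of the Itga4 and Itgb1 products. ICAM-1, the product of Icam1, is bound by LFA-1, a dimer of the Itgal and Itgb2 products, and by Mac-1, a dimer of the Itgam and Itgb2 products that is also the complement receptor and surface marker CD11b/CD18 of microglia and other myeloid cells.

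After filtering, the libraries held 10539, 11774, 9506, 11959 and 11543 cells from sham to day 14. The median per barcode was 773 unique molecular identifiers (UMIs, counts of single captured RNA molecules) in sham, 1756 at day 1, 3256 at day 3, 6581 at day 7 and 8558 at day 14, so depth moved with time. Pairs of libraries shared 27 to 59 cell barcodes. Of 32 clusters, 28 took the name of a cell type from marker genes. Most microglia-like and astrocyte-like clusters came mainly from 1 library, so cluster and library cannot be told apart there. Levels below are CPM, a gene's UMIs divided by all UMIs of the class in the library and scaled to 1000000, given where the library held at least 50 cells of the class. Endothelial-like cells numbered 84, 71, 73, 393 and 65 from sham to day 14, and 17 of 18 endothelial markers stood out in their cluster.

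**Figure D1:**
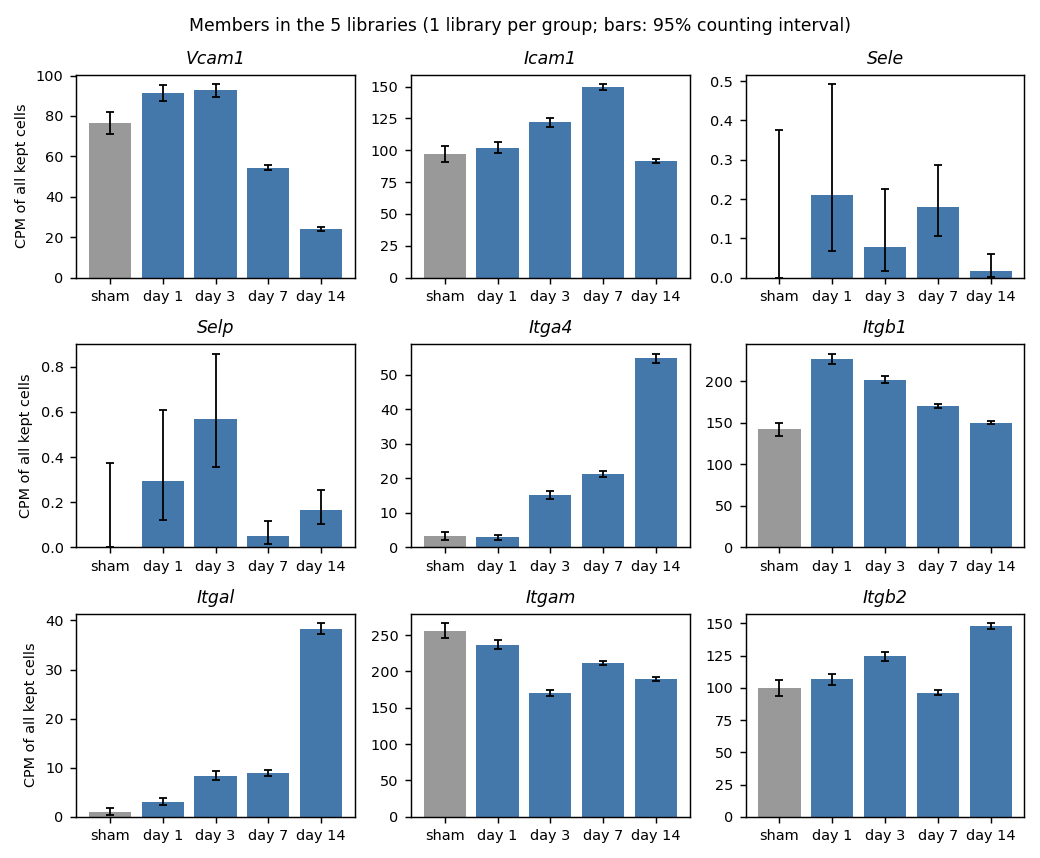
Level of each of the 9 genes in all kept cells of each library, in CPM, with 95% counting intervals as bars. Itga4 and Itgal are highest in the day 14 library, Vcam1 is lowest there, and the selectins stay under 1 CPM in all 5 libraries.

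Over all kept cells of a library, Itga4 measured 3.16, 2.87, 15.1, 21.3 and 54.7 CPM and Itgal 0.916, 3.00, 8.29, 8.83 and 38.3 CPM from sham to day 14. Both were highest at day 14, the library that also held the most T or NK cell-like cells, 1865 against 17 in sham. In such sums over all cells, more cells of a type and more RNA per cell cannot be told apart. Vcam1 was lowest at day 14, with 76.4, 91.3, 92.6, 54.5 and 24.1 CPM, while astrocyte-like cells numbered 4242, 4410, 1390, 1492 and 214. Icam1 measured 97.1, 102, 122, 149 and 91.8 CPM and was highest at day 7. Itgam, at 256, 237, 170.2, 212 and 190 CPM, was highest in sham, and Itgb2, at 99.9, 107, 125, 96.2 and 148 CPM, was highest at day 14.

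**Figure D2:**
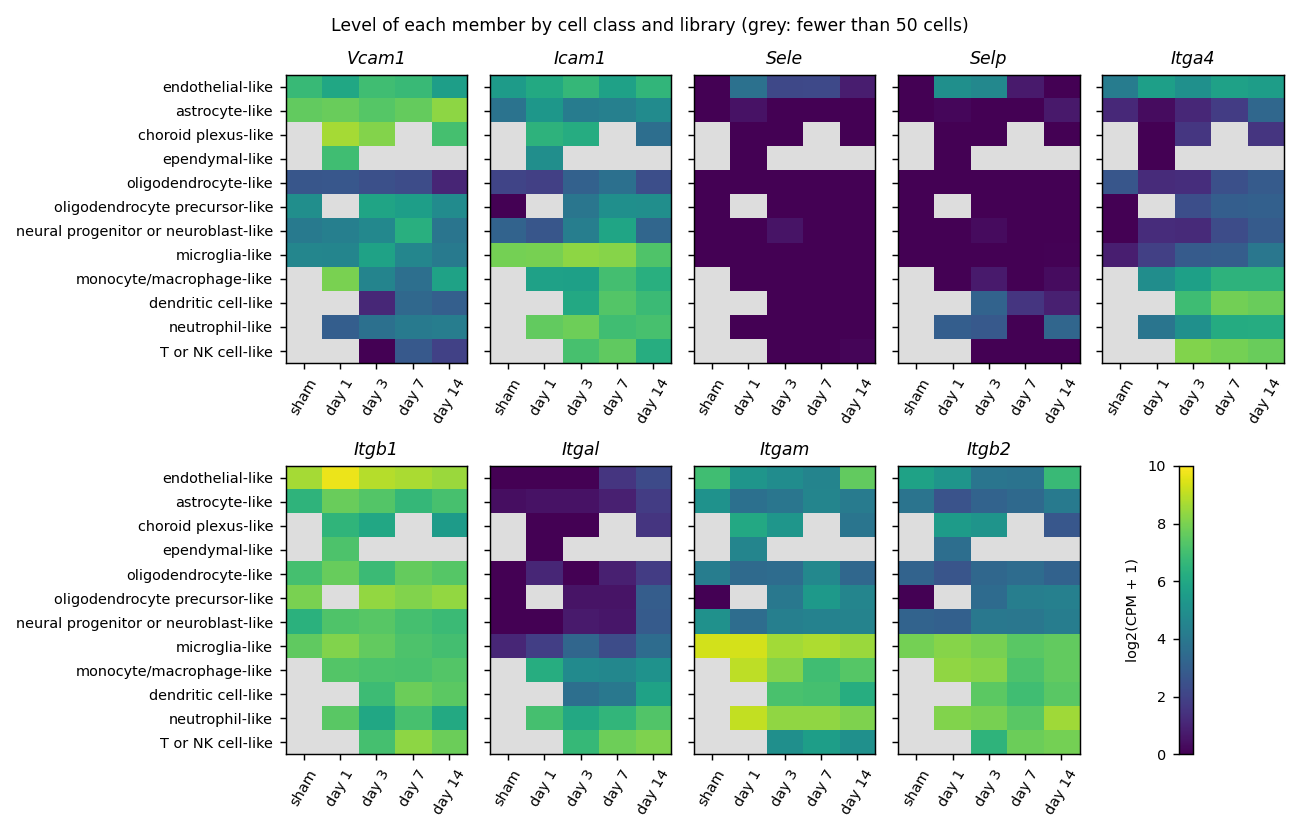
Level of each gene by cell class (rows) and library (columns), as log2(CPM + 1), with grey where the library held fewer than 50 cells of the class. Vcam1 is bright in astrocyte-like and choroid plexus-like cells and in monocyte/macrophage-like cells at day 1, Icam1 and Itgam in microglia-like cells, and Itga4 in lymphoid and dendritic classes. In the classes drawn Sele is almost confined to the endothelial row. Selp is found in that row after injury but not at day 14, and also in dendritic cell-like and neutrophil-like cells.

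Vcam1 (chr3:116109949-116129688, minus strand, GRCm38) had most of its UMIs in astrocyte-like cells in sham and at days 1 and 7, but not at days 3 and 14. Astrocyte-like cells had 193, 209, 163, 201 and 316 CPM from sham to day 14. By their intervals day 3 lay below and day 14 above the other 3 libraries, and at day 14 the class held 214 cells with 517 Vcam1 UMIs. Astrocyte-like cells gave 83.7% of all Vcam1 UMIs in sham, 74.5% at day 1 and 60.1% at day 7. Their share was 23.1% at day 3 and 17.7% at day 14, when monocyte/macrophage-like cells gave 33.5% and microglia-like cells 28.4%.

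To set depth aside, each cell was thinned to 500 UMIs. A Vcam1 UMI was then left in 8.98%, 8.14%, 7.99%, 8.58% and 11.2% of astrocyte-like cells, against 13.4%, 25.1%, 38.4%, 77.5% and 57.9% before thinning. Oligodendrocyte-like cells, which served as the background for free RNA, had at most 0.53% after thinning, although their median depth of 1513 to 9029 UMIs was of the same order as the 687 to 10079.5 UMIs of astrocyte-like cells. In CPM the oligodendrocyte-like background was 5.31, 5.50, 4.50, 4.07 and 1.06.

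High levels were also found in choroid plexus-like cells, with 398, 279.5 and 130.3 CPM at days 1, 3 and 14. A cluster led by Tagln that carried 13 of 14 astrocyte markers but stayed unnamed had 333, 313, 149 and 337 CPM from day 1 to day 14. It held 773 cells at day 3 and gave 41.7% of the Vcam1 UMIs of that library. Adding it to the astrocyte-like cells changed the day 3 log2 ratio to sham from -0.24 (95% interval -0.39 to -0.09) to 0.29, so the direction at day 3 depends on where these cells are placed.

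In endothelial-like cells, where VCAM-1 catches leukocytes, the Vcam1 level was 105 CPM in sham (54.3 to 184, from 12 UMIs), 61.0 at day 1 (interval 29.3 to 112), 122 at day 3 (interval 84.8 to 169), 109 at day 7 (interval 99.3 to 118) and 47.5 at day 14 (interval 36.5 to 60.8). The sham, day 1, day 3 and day 7 intervals overlap. Single cells carried much of the signal. In sham 66.7% of the Vcam1 UMIs were in 1 cell, and at day 7 29.4% were. Without the cell with the most Vcam1 UMIs the levels were 36.03, 32.6, 95.8, 77.6 and 37.5 CPM, with intervals of 9.82 to 92.3 CPM in sham and 69.8 to 86.0 CPM at day 7 that still overlap. After thinning, 1.19%, 2.82%, 2.74%, 3.56% and 4.62% of endothelial-like cells kept a Vcam1 UMI. The day 14 log2 ratio to sham of -1.15 (-2.05 to -0.12) was therefore not matched by the share of cells, and as a mean over cells it was 0.10. Kept doublets, or adhesion genes among the genes used for clustering, also ended that call.

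Microglia-like cells had little Vcam1 in most libraries, at 23.3, 22.6, 52.7, 23.1 and 16.3 CPM. The day 3 library stood above the other 4, with a log2 ratio to sham of 1.18 (0.85 to 1.52) from 628 UMIs in 331 of 2902 cells. Thinned shares followed, at 1.04%, 1.06%, 2.07%, 1.02% and 0.70%. Without the richest cell the day 3 level was 50.6 CPM. In the same microglia-like cells the summed level of the 14 astrocyte markers, all detected in each library, was 1163, 794, 493, 643 and 149 CPM. The Tagln-led cluster, which carried most of those markers too, gave more of the day 3 Vcam1 UMIs than any named class. The part of RNA from such cells in the microglial value was not tested. The main day 3 microglia-like cluster, led by Ccl4, Ccl3 and Tnf, had 61.3 CPM.

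Monocyte/macrophage-like cells were uneven in Vcam1, with 256 CPM at day 1 (178 to 356, 35 UMIs from 67 cells), 21.8 at day 3, 11.5 at day 7 and 52.8 at day 14. At day 3 the class held 2 clusters with very different values. The cluster led by Ccl8 and Ms4a7 had 156 CPM (74 UMIs in 85 cells) and the cluster led by Arg1 and Pf4 had 6.66 CPM (28 UMIs in 709 cells), a log2 ratio of -4.55 (-5.23 to -3.90) of the Arg1-led to the Ccl8-led cells. The Ccl8-led cluster had 11.5 CPM at day 7 and 53.5 CPM at day 14, so its level was not constant between libraries. Vcam1 measured 0, 6.02 and 2.78 CPM in T or NK cell-like cells at days 3, 7 and 14, where 0 UMIs at day 3 allow up to 3 UMIs, or 7.70 CPM. In dendritic cell-like cells it measured 1.15, 9.41 and 7.20 CPM. At day 3 the measured values of both classes lay below the oligodendrocyte-like background given above, and at days 7 and 14 they lay above it. The gap was largest in dendritic cell-like cells at day 14. Whether the gaps exceed counting error was not tested.

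Across the 47 pairs of class and library with at least 50 cells, the genes whose log2(CPM + 10) followed Vcam1 most closely were Efemp2 (Pearson r = 0.85), Tgfb2 (0.82) and Pdpn (0.80), among 10093 genes. These points share libraries and cell classes, so the values only describe likeness. Vcam1 itself did not follow the genes of its receptor, with r = -0.40 to Itga4 and -0.02 to Itgb1.

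Icam1 (chr9:21015985-21028817, plus strand, GRCm38) was highest in microglia-like rather than endothelial-like cells. Microglia-like cells had 241 CPM in sham (225 to 257), 249 at day 1 (interval 238 to 260), 317 at day 3 (interval 307 to 328), 290.0 at day 7 (interval 285 to 295) and 150 at day 14 (interval 146 to 153). The intervals of sham and day 1 overlap, days 3 and 7 lie above them and day 14 lies below the other 4. Among cells of at least 1000 UMIs the day 7 log2 ratio to sham was -0.03 in place of 0.27, and the day 1 ratio -0.21 in place of 0.05, so both directions depend on that minimum. Microglia-like cells gave 93.2% of all Icam1 UMIs in sham and 68.3% at day 14. After thinning, 10.3%, 10.98%, 15.3%, 12.2% and 7.00% of microglia-like cells kept an Icam1 UMI, against at most 0.53% of oligodendrocyte-like cells.

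Other leukocyte classes carried Icam1 as well. Neutrophil-like cells had 192, 223, 122 and 134 CPM from day 1 to day 14, T or NK cell-like cells 136, 189.5 and 74.8 CPM and dendritic cell-like cells 65.4, 158 and 112 CPM from day 3 to day 14, and monocyte/macrophage-like cells 51.2, 51.1, 127 and 78.7 CPM from day 1. Among these classes the order was not the same in every library. Neutrophil-like cells led at day 3 and their interval of 184 to 268 CPM lay above that of T or NK cell-like cells, 102 to 178 CPM. At day 7 T or NK cell-like and dendritic cell-like cells had overlapping intervals, 172 to 209 and 135 to 184 CPM. In monocyte/macrophage-like cells the 15 microglia markers summed to 35.3%, 23.0%, 50.8% and 51.9% of their level in microglia-like cells from day 1 to day 14. The part of microglial RNA in the Icam1 values of that class was not tested.

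Endothelial-like cells had 43.8 CPM of Icam1 in sham (14.2 to 102, from 5 UMIs), 67.1 at day 1 (interval 33.5 to 120), 101 at day 3 (interval 67.5 to 145), 51.4 at day 7 (interval 45.1 to 58.3) and 93.5 at day 14 (interval 77.8 to 112). The sham interval overlaps those of all 4 injured libraries. Against sham, day 3 was 1.20 higher on the log2 scale (interval -0.18 to 2.93) and day 14 was 1.09 higher (interval -0.17 to 2.74), so neither was beyond counting error on the CPM scale. Over the alternatives they ran from 0.85 to 2.10 and from 0.89 to 1.60, and scaling by TMM, which sets the bulk of genes level, put both past the call rule. In these cells the summed level of the 15 microglia markers was 7313, 1990, 1774, 2029 and 16030 CPM (15, 14, 15, 15 and 15 of the 15 had a UMI, with Siglech at 0 at day 1), 16.5% of the level in microglia-like cells in sham and 39.8% at day 14, and its part in the endothelial Icam1 values was not tested. Of all 686 endothelial-like cells, 133 had a Vcam1 UMI, and 51.1% of these also had an Icam1 UMI against 13.9% of the other 553. The cells with a Vcam1 UMI were deeper, with a median of 19156 against 2787 UMIs, and the part of depth in this overlap was not tested.

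Astrocyte-like cells had little Icam1, at 12.9, 38.6, 17.5, 19.2 and 27.5 CPM. The day 1 library was highest, with a log2 ratio to sham of 1.58 (1.11 to 2.08), and day 14 was 1.09 (0.45 to 1.73) above sham from 45 UMIs. The 15 microglia markers, all detected in astrocyte-like cells of every library, summed to 1981, 714, 1061, 2144 and 2110 CPM there. They were lower than in sham at day 1 and not lower at day 14, and their part in the Icam1 values was not tested. Oligodendrocyte-like cells had 3.10, 2.75, 7.51, 11.8 and 4.36 CPM.

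The genes closest to Icam1 over the 47 pairs of class and library were Mylip (r = 0.90), an E3 ubiquitin ligase that acts on lipoprotein receptors, and Nfkbiz (0.88) and Nfkbia (0.87), which encode NF-kB regulators. Icam1 is a textbook NF-kB target, so the stretches upstream of the start site are shown for Icam1 and for 2 of these 3 genes. They are the 250 bases before the RefSeq start site on GRCm38.p6, 5′ to 3′ on the strand of the gene, with capitals for matches on either strand to kB-type motifs, which are GGG and CC with any 5 bases between them, or GG and TTTCC with any 3 bases between them. Icam1 lies at chr9:21015690-21015939 on the plus strand, Nfkbia at chr12:55492648-55492897 on the minus strand and Mylip at chr13:45389492-45389741 on the plus strand.
Icam1: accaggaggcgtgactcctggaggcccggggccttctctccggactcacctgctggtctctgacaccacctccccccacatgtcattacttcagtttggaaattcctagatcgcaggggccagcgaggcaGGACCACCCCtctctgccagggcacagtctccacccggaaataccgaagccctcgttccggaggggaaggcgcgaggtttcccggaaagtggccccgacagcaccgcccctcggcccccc
Nfkbia: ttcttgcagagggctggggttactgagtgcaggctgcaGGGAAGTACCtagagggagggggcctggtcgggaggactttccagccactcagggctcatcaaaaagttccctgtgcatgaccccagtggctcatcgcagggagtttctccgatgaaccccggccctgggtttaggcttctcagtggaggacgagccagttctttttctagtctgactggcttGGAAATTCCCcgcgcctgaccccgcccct
Mylip: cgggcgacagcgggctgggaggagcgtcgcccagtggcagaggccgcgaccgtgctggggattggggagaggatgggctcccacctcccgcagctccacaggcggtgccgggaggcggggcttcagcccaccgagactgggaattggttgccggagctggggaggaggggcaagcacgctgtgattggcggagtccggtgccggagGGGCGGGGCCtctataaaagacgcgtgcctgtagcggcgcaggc
The Icam1 stretch held 1 match to these motifs, GGACCACCCC, whose first base lay 120 bases before the start site. It also held tggaaattcc, which differs from the GGG-to-CC motif in its first base only and so was left in lower case. The motifs do not cover every kB-type sequence, and which stretch binds NF-kB was not tested. Nfkbia held 2 matches, and its match at 29 bases before the start site, GGAAATTCCC, matched both motifs. In Mylip the match lay 44 bases before the start site. The GGG-to-CC motif was found in 45.8% of 32851 RefSeq stretches of this length and the GG-to-TTTCC motif in 4.63%, so a match to the GGG-to-CC motif is common. Promoters of 6 of the 9 genes were at hand.

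Sele and Selp encode E-selectin and P-selectin, which start leukocyte rolling, and both were rare. Sele had 0, 5, 3, 18 and 2 UMIs in the whole libraries from sham to day 14, and Selp had 0, 7, 22, 5 and 20. The count of 0 in sham allows up to 3 UMIs, or 0.305 CPM. Sele reached at most 0.211 CPM in the injured libraries, which would not have been detectable in sham. Selp at day 3, at 0.567 CPM, lay above that floor, but its interval of 0.355 to 0.858 CPM overlaps that of sham, which reaches 0.376 CPM.

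Of the 18 Sele UMIs at day 7, 94.4% were in endothelial-like cells. Astrocyte-like cells held 3 of the 5 Sele UMIs at day 1 and endothelial-like cells 2. In endothelial-like cells Sele measured 12.2 CPM at day 1 (2 UMIs), 3.48 at day 3 (1 UMI), 3.61 at day 7 (17 UMIs) and 0.754 at day 14 (1 UMI). Selp measured 30.5 CPM at day 1 (5 UMIs, 9.91 to 71.2), 24.3 at day 3 (7 UMIs, 9.79 to 50.2), 0.637 at day 7 (3 UMIs) and 0 at day 14, where the floor of 3 UMIs is worth 2.26 CPM. All 5 Selp UMIs at day 1 were in 1 of 71 cells, the 7 at day 3 in 2 of 73 cells and the 3 at day 7 in 1 of 393 cells. The Selp intervals treat UMIs as separate draws, so no order of the libraries is read from them. In sham endothelial-like cells both had 0 UMIs and the floor is 26.3 CPM, and no ratio to sham is given.

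Few endothelial-like cells held a selectin UMI, 5 of 686 for Sele and 4 of 686 for Selp, and 2 cells held both. All 5 Sele cells also had an Icam1 UMI and a UMI of Vwf, the von Willebrand factor gene that shares storage granules with P-selectin, at a median depth of 28165 UMIs. Of the 681 cells without a Sele UMI, 20.6% had an Icam1 UMI and 59.2% a Vwf UMI, at a median depth of 3941 UMIs. The part of depth in this overlap was not tested. Outside endothelium, Selp had 7 UMIs in dendritic cell-like cells at day 3 (8.03 CPM, 3.23 to 16.5) and 3 UMIs in neutrophil-like cells at days 3 and 14 (5.92 and 8.96 CPM). The 20 Selp UMIs at day 14 were all outside endothelial-like cells. The closest genes to both selectins were Lrrc32, Angpt2 and B3gnt3, with r of 0.97, 0.92 and 0.89 for Sele and 0.72, 0.73 and 0.71 for Selp, values that rest on the few endothelial UMIs.

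Itga4 (chr2:79255426-79333123, plus strand) encodes the alpha chain that gives VLA-4 its binding to VCAM-1. T or NK cell-like cells had 272, 241 and 210.0 CPM at days 3, 7 and 14, and dendritic cell-like cells had 118, 233 and 211 CPM. At days 7 and 14 the intervals of these classes overlap, and at day 3 the T or NK cell-like interval, 223 to 329 CPM, lies above the dendritic cell-like interval, 96.4 to 143 CPM. Monocyte/macrophage-like cells followed, with 29.2, 50.2, 86.7 and 86.4 CPM from day 1 to day 14, and neutrophil-like cells with 13.7, 31.6, 71.1 and 71.7 CPM.

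Endothelial-like cells also carried Itga4, at 17.5, 48.8, 31.3, 52.0 and 46.8 CPM, from 2, 8, 9, 245 and 62 UMIs. Their intervals overlap in every pair with sham. The summed level of the 15 T or NK cell markers in the same cells was 8.76, 6.10, 27.8, 26.6 and 50.5 CPM, with 1, 1, 5, 15 and 12 of the 15 detected and Cd8a, Cd4 and Nkg7 at 0 through day 3. Their part in the Itga4 values was not tested. In T or NK cell-like cells themselves these markers summed to 7289, 7860 and 9856 CPM from day 3. Microglia-like cells had 0.813, 2.74, 6.38, 6.71 and 14.8 CPM, the highest at day 14. Oligodendrocyte-like cells had 5.31, 1.37, 1.50, 4.50 and 6.24 CPM, so microglia-like cells lay below them in sham, from 3 UMIs, and above them at day 14, where the intervals of 13.8 to 15.9 and 5.21 to 7.42 CPM do not overlap. The 16 monocyte/macrophage markers in microglia-like cells summed to 248, 470.0, 1180, 1986 and 2899 CPM (9, 14, 16, 16 and 16 detected, with Ms4a7, F13a1, Lyve1, Cd163, Chil3, Arg1 and Clec4n at 0 in sham) and moved with it, and their part was not tested. The closest genes were Il2rg (r = 0.92), the common chain of several interleukin receptors, Kcnn4 (0.89) and Ifi203 (0.89).

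Itgb1 (chr8:128685654-128733200, plus strand) encodes the beta chain of VLA-4 and of many matrix receptors, and it was found in every class measured. Endothelial-like cells had 403 CPM in sham (295 to 537), 824 at day 1 (interval 691 to 975), 469 at day 3 (interval 394 to 556), 421 at day 7 (interval 402 to 440) and 359 at day 14 (interval 327 to 393). The day 1 interval lies above the other 4, with a log2 ratio to sham of 1.03 (0.54 to 1.55). Over 7 alternatives this ratio ran from 0.95 to 1.14, on both sides of 2-fold. An unnamed cluster led by Col1a1 and Col1a2 had 885 CPM at day 3 and 874 at day 7, and oligodendrocyte precursor-like cells had 252 to 332 CPM in the 4 libraries with enough cells.

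Day 1 was also the high point of Itgb1 in astrocyte-like and microglia-like cells. Astrocyte-like cells had 90.2, 208, 158, 98.9 and 134 CPM, with a log2 ratio of 1.20 (1.02 to 1.39) at day 1. Microglia-like cells had 188, 274, 191, 146 and 129 CPM, with a log2 ratio of 0.54 (0.42 to 0.67) at day 1, short of 2-fold. The leukocyte classes showed no such common order. T or NK cell-like cells had 131, 316 and 214 CPM, monocyte/macrophage-like cells 161, 145, 140 and 159 CPM with overlapping intervals at days 1, 3 and 7. The closest genes, Akap12, Xiap and Ece1, reached r of 0.75, 0.74 and 0.73, less than for any other member but Selp.

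Itgal (chr7:127296260-127335138, plus strand) encodes the alpha chain of LFA-1. T or NK cell-like cells had 103 CPM at day 3 (interval 73.4 to 140), 218 at day 7 (interval 199 to 239) and 270 at day 14 (interval 260 to 280), and these intervals do not overlap. They gave 53.5% of all Itgal UMIs at day 7 and 60.7% at day 14. After thinning, 5.52%, 10.2% and 12.7% of these cells kept an Itgal UMI, and at most 0.10% of oligodendrocyte-like cells did. The thinned shares rose in the same order. Their own counting intervals are not given, and the lack of overlap holds for the CPM values only. Neutrophil-like cells had 130, 65.2, 94.8 and 155 CPM from day 1 to day 14, with overlapping intervals at days 1 and 14.

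Monocyte/macrophage-like cells had 73.1, 26.5, 23.9 and 33.7 CPM of Itgal from day 1, and dendritic cell-like cells 11.5, 15.1 and 53.6 CPM from day 3. In the dendritic cell-like cells the 15 T or NK cell markers summed to 60.8, 109 and 1256 CPM, with 10, 11 and 15 of the 15 detected and Ncr1, Klrb1c and Gzma at 0 at days 3 and 7. That is 0.834%, 1.39% and 12.7% of their level in T or NK cell-like cells. They moved with Itgal, and their part in its values was not tested. Microglia-like cells had 1.08, 2.62, 8.73, 3.99 and 10.6 CPM and endothelial-like cells at most 3.77 CPM. The closest gene with a known role was Ly6c2 (r = 0.93), a surface protein of monocytes and T cells, beside C920009B18Rik (0.94) and Slfn1 (0.92).

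Itgam (chr7:128062640-128118491, plus strand) encodes the alpha chain of Mac-1. Microglia-like cells had 632 CPM in sham (606 to 658), 653 at day 1 (interval 635 to 671), 394 at day 3 (interval 382 to 405), 431 at day 7 (interval 425 to 438) and 360.1 at day 14 (interval 355 to 365). Sham and day 1 overlap and lie above the later 3 libraries. The log2 ratios to sham were -0.68, -0.55 and -0.81 at days 3, 7 and 14, short of 2-fold, and thinned shares went with them, at 26.4%, 26.8%, 16.1%, 18.5% and 16.7% of cells against at most 1.26% of oligodendrocyte-like cells. Gm49368, a gene annotated on the same strand over Itgam, took 25, 97, 30, 48 and 74 UMIs in the libraries, against 2515 to 22971 for Itgam. How many reads fitted both genes was not tested.

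Neutrophil-like cells had 547, 322, 320 and 266 CPM of Itgam from day 1 and monocyte/macrophage-like cells 512, 284, 120.4 and 165 CPM. At day 1 the intervals of both overlap, 434 to 681 and 399 to 647 CPM, and at days 7 and 14 neutrophil-like cells lay above. The stretch before the RefSeq start site of Itgam (chr7:128062390-128062639, plus strand, GRCm38.p6) is shown since Itgam marks the myeloid classes, with capitals for the kB-type matches and for GAGGAA, a core to which the myeloid factor PU.1 can bind, on either strand.
Itgam: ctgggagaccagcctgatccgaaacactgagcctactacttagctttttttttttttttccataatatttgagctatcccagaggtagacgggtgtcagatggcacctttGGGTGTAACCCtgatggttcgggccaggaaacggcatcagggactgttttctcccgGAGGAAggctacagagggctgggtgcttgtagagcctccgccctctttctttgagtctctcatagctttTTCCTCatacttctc
GAGGAA matched 84 and 15 bases before the start site and was found in 23.3% of the 32851 stretches. The closest genes to Itgam were Slc15a3, Btk and Naip2, each at r = 0.95, and Btk encodes a kinase of B cell and myeloid signalling.

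Itgb2 (chr10:77530252-77565708, plus strand) encodes the beta chain shared by LFA-1 and Mac-1, and it was found in every leukocyte class. Microglia-like cells had 240.2, 289, 247, 173 and 195 CPM from sham to day 14. Neutrophil-like cells had 274, 249, 174 and 385 CPM, monocyte/macrophage-like cells 322, 292, 148 and 192 CPM, T or NK cell-like cells 89.9, 215 and 238 CPM and dendritic cell-like cells 178, 122 and 175 CPM. Neutrophil-like cells at day 14 (322 to 458 CPM) lay above every other class of that library. The pattern over class and library followed Cd53 (r = 0.97), a leukocyte tetraspanin, Elf4 (0.95) and Slfn2 (0.95), and among the other members Itgam (0.90), Icam1 (0.84) and Itgal (0.72).

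**Figure D3:**
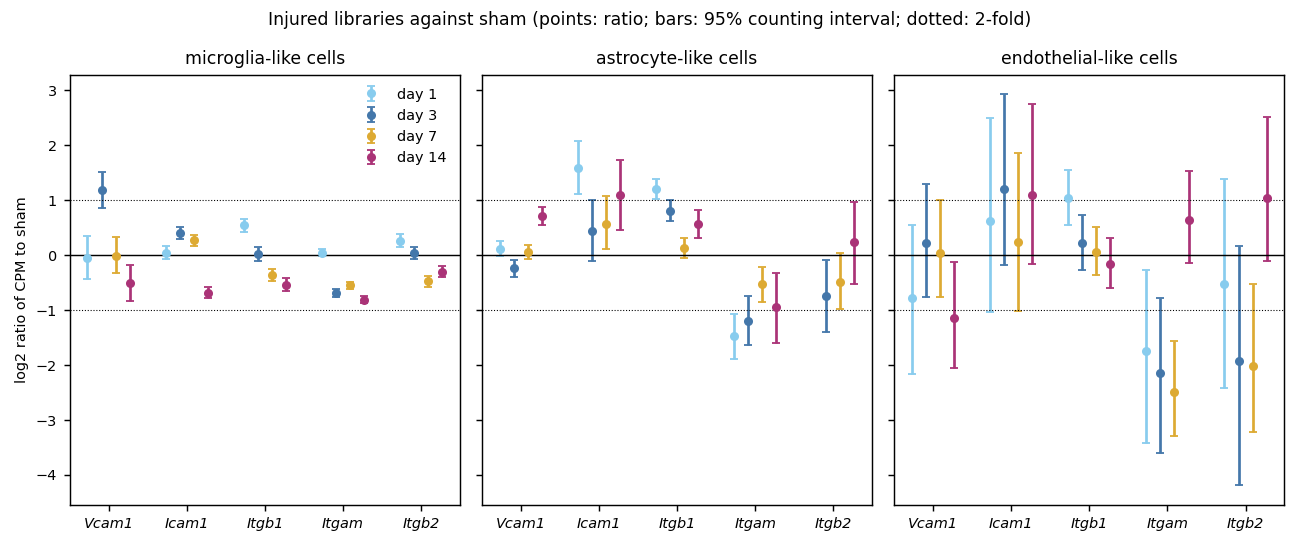
Log2 ratio of CPM to sham for 5 genes in microglia-like, astrocyte-like and endothelial-like cells at each day (points), with 95% counting intervals as bars and dotted lines at 2-fold; astrocyte-like Itgb2 at day 1 has no point, as its mean over the 2 libraries was under 10 CPM. Endothelial intervals are wide, with 84 such cells in sham, and microglial Vcam1 at day 3 is the one microglial point past 2-fold.

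A gene was called when its ratio to sham was at least 2-fold and its counting interval lay on 1 side of no difference, among genes with a mean of 10 CPM or more over both libraries. In microglia-like cells 5 members could be called, Vcam1, Icam1, Itgb1, Itgam and Itgb2. None was called at day 1, where 18.3% of 8729 genes were called in either direction. At day 3 Vcam1 was called higher, 1 of 5 members, where 30.4% of 8523 genes were called. None was called at day 7, where 18.1% of 8531 genes were called, or at day 14, where 30.5% of 8309 were. With 5 members, counts of 0 and 1 cannot be set apart from these backgrounds.

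Over all genes the median log2 ratio in microglia-like cells was -0.06, -0.29, -0.34 and -0.53 from day 1 to day 14. Scaling by TMM raised each microglial log2 ratio by 0.10, 0.34, 0.37 and 0.67. On that scale Vcam1 went from -0.05 to 0.06 at day 1, and Itgb1 went from -0.36 to 0.01 at day 7 and from -0.54 to 0.13 at day 14, Vcam1 from -0.01 to 0.36 at day 7 and from -0.51 to 0.15 at day 14, and Itgb2 from -0.30 to 0.37 at day 14. Itgam stayed below sham at days 3, 7 and 14, at -0.35, -0.18 and -0.14, and Icam1 at day 14 was -0.02. The direction of Vcam1 and Itgb1 at days 7 and 14 and of Itgb2 at day 14 thus rests on the scaling, while Itgb2 at day 7 was -0.10.

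In endothelial-like cells 7 members reached the mean of 10 CPM at days 1 and 3 and 6 at days 7 and 14. The 7 include Selp, which had 0 UMIs in sham and no ratio at day 3, so it could not be called there. At day 1 Itgb1 was called higher and Itgam lower, 2 of 7 members beside 8.92% of 9396 genes. At day 3 only Itgam was called, lower, beside 15.4% of 9085 genes. Itgam and Itgb2 were called lower at day 7 beside 9.64% of 9455 genes, and Vcam1 lower at day 14 beside 13.6% of 9357 genes. TMM scaling raised the endothelial log2 ratios by 0.05, 0.38, 0.27 and 0.43. On that scale Icam1 was called higher at day 3 (1.58), Vcam1 at day 14 was short of 2-fold (-0.71), and Icam1, Itgam and Itgb2 were called higher at day 14 (1.53, 1.07 and 1.48).

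The 3 endothelial calls of Itgam, at log2 ratios of -1.74 (-3.41 to -0.27), -2.14 (-3.60 to -0.79) and -2.49 (-3.30 to -1.57), moved with the summed microglia markers given above. Itgam itself measured 123, 36.6, 27.8, 21.9 and 191 CPM and Itgb2 52.5, 36.6, 13.9, 12.96 and 109 CPM from sham to day 14 in these cells, low where the microglia markers were low and high where they were high. With doublets kept the day 1 ratio of Itgam was -0.78 and not called. Both genes mark microglia, and the part of microglial RNA in the endothelial values was not tested.

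In astrocyte-like cells 4 members could be called at day 1 and 5 later. At day 1 Icam1 and Itgb1 were called higher and Itgam lower, where 26.6% of 9197 genes were called in either direction. Itgam was called lower again at day 3 (19.6% of 9043 genes called), none was called at day 7 (13.9% of 9135) and Icam1 was called higher at day 14 (23.5% of 9723). Itgam measured 32.8, 11.8, 14.4, 22.7 and 17.1 CPM in these cells, while their summed microglia markers were 1981, 714, 1061, 2144 and 2110 CPM. TMM scaling moved the astrocyte ratios by 0.21, 0.14, 0.20 and -0.22, which takes Icam1 at day 14 below 2-fold.

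**Figure D4:**
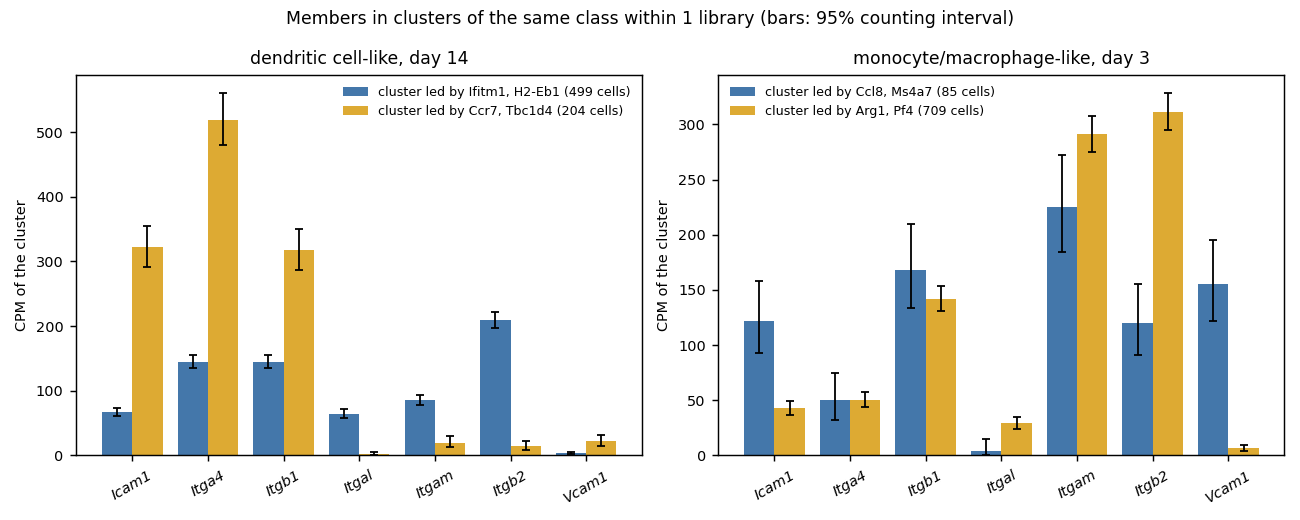
Level in CPM of 7 of the genes in pairs of clusters of the same class within 1 library, dendritic cell-like cells at day 14 (left) and monocyte/macrophage-like cells at day 3 (right), with 95% counting intervals as bars. The Ccr7-led dendritic cluster is high in Icam1, Itga4 and Itgb1 and low in the LFA-1 and Mac-1 chains, and the Ccl8-led macrophage cluster is the higher of its pair in Vcam1 and Icam1.

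Dendritic cell-like cells formed 2 clusters that differed in nearly all the integrins within the same library. Their clustering used neither the 9 members nor the other adhesion genes. At day 14 the 204 cells of the cluster led by Ccr7, the chemokine receptor that takes dendritic cells to lymph nodes, had 520 CPM of Itga4, 322 of Icam1 and 318 of Itgb1. The 499 cells led by Ifitm1 and the MHC class II gene H2-Eb1 had 145, 67.2 and 145 CPM. The log2 ratios were 1.84 (1.69 to 1.99), 2.26 (2.06 to 2.47) and 1.13 (0.96 to 1.31). Vcam1 was low in both clusters but higher in the Ccr7-led cells, with 22.3 CPM (28 UMIs) against 3.94 CPM (23 UMIs). The interval of its log2 ratio was 1.65 to 3.36. At day 7 Vcam1 measured 15.1 against 8.10 CPM, from 3 and 7 UMIs, a difference within counting error.

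The beta 2 integrins went the other way. The Ccr7-led cells had 14.4 CPM of Itgb2, 19.95 of Itgam and 1.60 of Itgal (2 UMIs), and the other cells had 209, 86.0 and 64.8 CPM. The log2 ratios were -3.87 (-4.63 to -3.20), -2.11 (-2.75 to -1.53) and -5.34 (-8.39 to -3.48). At day 7, with 55 Ccr7-led cells, the directions were the same for Itga4 (1.33), Icam1 (1.67), Itgb1 (1.66), Itgam (-2.65) and Itgb2 (-2.52), and Itgal had 0 UMIs in the Ccr7-led cells and 16 in the others. The T or NK cell markers given above for dendritic cell-like cells at day 14 were not split by cluster, and their part in the Itgal difference was not tested. These are differences between clusters within each library, with no second library of the same day.

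Within the monocyte/macrophage-like cells of day 3, the Arg1-led cluster had more Itgb2 than the Ccl8-led cluster, 311 against 120.0 CPM (log2 ratio 1.38, 0.99 to 1.79). It had more Itgal, 29.0 CPM from 122 UMIs against 4.21 CPM from 2 UMIs (2.78, 0.90 to 5.85), and slightly more Itgam, 291 against 225 CPM (0.37, 0.08 to 0.67). It had less Icam1, 43.0 against 122 CPM (-1.50, -1.94 to -1.05). Itga4, at 50.2 and 50.5 CPM, differed by -0.01 (-0.62 to 0.66), and Itgb1, at 142 and 168 CPM, by -0.25 (-0.59 to 0.11), so neither difference was beyond counting error.

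A further 65 adhesion genes in 4 lists were read in the same way, and their counts stand beside the shares over all genes given above, in microglia-like cells 18.3%, 30.4%, 18.1% and 30.5% from day 1 to day 14. Of 17 endothelial ligands and junction proteins, 6 could be called in microglia-like cells, and Pecam1, F11r, Jam2 and Jam3 were called lower at each of the 4 days. F11r, the gene of junctional adhesion molecule A, measured 692, 331, 167, 265 and 205 CPM from sham to day 14, lowest at day 3. Of 10 leukocyte selectin and counter-receptor genes, 6 could be called at day 1 and 5 at days 3, 7 and 14. Selplg and St3gal6 were called lower at each of the 4 days, and Gcnt1 at days 3, 7 and 14. Selplg, which encodes the P-selectin ligand PSGL-1, had 2327, 549, 661, 628 and 478 CPM. Its log2 ratio ran from -1.82 at day 3 to -2.28 at day 14, and the sham library lay apart from the other 4.

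Cd44, the hyaluronan receptor, had 0 UMIs in sham microglia-like cells and 33.0, 24.9, 12.03 and 20.3 CPM from day 1, with log2 ratios of at least 5.34 at day 1, 4.94 at day 3 and 4.64 at day 14. It was called higher at these 3 days and was under the 10 CPM mean at day 7. Of 22 other integrin subunits, 6 or 7 could be called. Itgax, the CD11c chain, was called higher at days 7 and 14, with 10.6, 7.48, 8.56, 25.1 and 74.4 CPM, and Itga5, the fibronectin receptor chain, at day 1, with 11.7, 68.2, 21.7, 13.2 and 16.5 CPM. Itga9 was called lower at all 4 days, with 63.7, 22.7, 7.30, 14.7 and 9.70 CPM. Itgav was called lower at days 3, 7 and 14, and Itgb3 at day 14. Of 16 integrin activation genes, which include talins and kindlins, 13, 13, 13 and 12 could be called. None was called higher and 1, 2, 2 and 3 were called lower, no larger a share than over all genes.

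In endothelial-like cells, where 8.92% of all genes were called at day 1 and 15.4% at day 3, 13 of the 17 ligand and junction genes could be called. At day 1 Pecam1, Cdh5 and Mcam were called higher, with Pecam1 at 254 CPM in sham and 934 at day 1 (log2 ratio 1.88) and Cdh5, the gene of VE-cadherin, at 263 and 732 CPM (1.48). None was called lower. At day 3 Ackr1, an atypical chemokine receptor of venules, was higher, with 76.5 CPM from 22 UMIs against 8.76 CPM from 1 UMI, a log2 ratio of 3.13 with an interval of 0.50 to 8.49 (named here after its values were seen), and Icam2, Cd34, F11r and Jam2 were lower. Itga5 and Itgb3 were called higher at day 1 and Itgb5 lower, of 11 other integrin subunits that could be called, with Itga5 at 134 CPM from 22 UMIs against 17.5 CPM from 2 UMIs, a log2 ratio of 2.94 with an interval of 0.91 to 6.07. Cd44 was higher at day 1, with 73.2 CPM from 12 UMIs against 0 UMIs in sham. Selplg was lower at all 4 days in these cells too, at 499, 6.10, 90.4, 38.4 and 206 CPM, where 6.10 CPM at day 1 is the worth of 1 UMI. The summed microglia markers given above were lower than in sham at days 1, 3 and 7 but higher at day 14, at 16030 against 7313 CPM. Their part in the Selplg values was not tested.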

How the data were processed

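Single-cell suspensions of mouse cortex were sequenced as 10x 3′ v3 libraries, 1 from sham mice and 4 from injured mice. The values are UMI counts per gene and barcode that the authors deposited, filtered by Cell Ranger 4.0.0 per the file headers, and STAR 2.5.37, Seurat 3.2.0, GRCm38 and mm10 are further named in the submitters' processing notes. All 55450 gene identifiers matched the GENCODE annotation of GRCm38. Library totals were 11279455 UMIs in sham and 26705021, 41090570, 110205126 and 129161094 at days 1, 3, 7 and 14.

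Barcodes under 500 UMIs, under 200 genes or over 20% mitochondrial UMIs were dropped, and Scrublet doublets (3.16% to 8.52% of a library) were removed. At day 7, 12.7% of barcodes exceeded the mitochondrial limit. Clustering (scanpy 1.11.5, leidenalg 0.10.2) used 2000 variable genes without the 9 members and 65 other adhesion genes, 30 principal components, 15 neighbours and resolution 1. A cluster was named from 223 markers of 17 cell types when at least 3 markers of a type were in 10% of its cells at 2-fold or more. The name was withheld when another type had more markers among the 10 genes of highest fold. It was also withheld from shallow clusters with no marker of the type among those genes. The Tagln-led cluster had 0 astrocyte markers and 1 marker of another type among its 10 genes. UMIs were summed by class and library where both libraries compared held 50 cells. Levels carry exact Poisson intervals and log2 ratios exact conditional binomial intervals at 95% (scipy 1.17.1), both for counting error only. A count of 0 was given a floor of 3 UMIs per class and library, and no ratio was given where both counts were at or under that floor. A count of 1 to 3 UMIs against a higher one kept its ratio and counting interval. The call rule was run on simulated independent Poisson counts, which is the model behind the intervals. Clumping of UMIs in single cells was therefore not tested.

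Named genes were the 9 members, the 3 genes with the highest Pearson correlation to each, and at most 4 called genes per adhesion list and class, those with the highest mean CPM. Alternatives changed the UMI and mitochondrial limits, doublets, resolution, naming, scaling, averaging and variable genes. The members, lists and rules were chosen with earlier results of these data known. Promoter sequences came from RefSeq (GRCm38.p6), where 6 of the 9 members were found.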

Additional observations from a re-analysis of the deposited data

Results flagged for a closer look

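At day 14, 2 of the ligand genes lay on opposite sides of sham in different cell classes. For Vcam1 the log2 ratio to sham was 0.71 in astrocyte-like cells and -1.15 in endothelial-like cells. For Icam1 it was 1.09 in astrocyte-like cells and -0.69 in microglia-like cells. With 1 library per group the difference between classes was not tested in either case. The endothelial value of Vcam1 comes from 12 UMIs in sham. It was 0.10 as a mean over cells, and without the richest cell of each library the levels were 36.03 CPM in sham and 37.5 CPM at day 14. Under TMM scaling the microglial value of Icam1 was -0.02 and the astrocyte value was below 2-fold. The astrocyte value comes from 45 UMIs at day 14.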

How the results depend on the processing

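No paired analysis was possible because each group held 1 library and the labels give no replicate numbers, and no library could be left out of a group. Of 63 recomputed counts of called members, 48 stayed within 1.5 times the reported count, and of 366 recomputed single ratios 26 took another sign. In microglia-like cells joined with monocyte/macrophage-like cells the day 14 count was 2 (Itga4 higher, Itgam lower) in place of 0. The microglial Vcam1 ratio at day 3 ranged from 0.92 to 1.51. In endothelial-like cells the day 1 count of 2 became 1 at a limit of 10% mitochondrial UMIs, with cells named by marker score, as a mean over cells and with adhesion genes among the variable genes, and 0 with doublets kept. The day 3 count of 1 became 2 at 10% mitochondrial UMIs, with doublets kept, by marker score and under TMM, and 3 as a mean over cells. The day 14 count of 1 became 0 with doublets kept and with adhesion genes among the variable genes, 2 as a mean over cells and 3 under TMM, and the Vcam1 ratio there turned from -1.15 to 0.10 as a mean over cells. The causes were not tested. A minimum of 1000 UMIs gave no endothelial values, and marker scores none at day 14, because a library then held fewer than 50 such cells. With 84 endothelial-like cells in sham, differences from sham under about 2-fold were not detectable for most members. Larger differences could also stay within counting error, as for Icam1 at day 3 with a log2 ratio of 1.20. For Sele and Selp no ratio to sham is given. The astrocyte alternative and the values without the richest cell were chosen after seeing the data.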

Other observations

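An unnamed cluster led by Col1a1, Col1a2 and Col3a1, which encode fibrillar collagens, had 5.49 CPM of Itga4 at day 3 (2.21 to 11.3, 7 UMIs in 95 cells) and 233 CPM at day 7 (192 to 281, 112 UMIs in 132 cells). The median depth of its cells was 6519 UMIs at day 3 and 2333 UMIs at day 7. Itgb1, the partner chain of VLA-4, was 885 and 874 CPM in the same cells. There Itgam was 2.19% and 18.8%, and Itgb2 2.85% and 24.1%, of the level in microglia-like cells at days 3 and 7. The part of leukocyte RNA in the Itga4 values was not tested. An unnamed cluster led by the immunoglobulin genes Igkc, Ighg2b and Jchain held 150 cells at day 14, with 86.3 CPM of Itga4, 31.3 CPM of Itgb1, 36.9 CPM of Itgal and 1.12 CPM of Vcam1. It also carried 6 of 7 erythroid markers, and whether it holds cells of more than 1 type was not tested.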
